A study of Mus musculus with 12 samples.

Results

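The 9 genes described here encode transcription factors of the myeloid lineage: Spi1, Cebpa, Cebpb, Cebpd, Cebpe, Gfi1, Runx1, Klf4 and Gata2. They were taken by symbol, from a list drawn up with earlier results of these data known, and all 9 were present among the 24454 genes of the deposited table. Fetal liver cells of wildtype (WT) mice or of mice lacking the β splice isoform of STAT3 (Δβ) had been transformed with a retrovirus that carries the fusion oncogene MLL-AF9 and a Venus reporter. Transformed cells were injected into the tail vein of young male NSG mice, an immunocompromised strain. Once the recipients were diseased, Venus+ blasts were sorted from spleen (SP) and bone marrow (BM) and their poly-A RNA was sequenced. This gave 3 libraries each of WT SP, Δβ SP, WT BM and Δβ BM, 12 in all, and 9001051 to 13859727 reads on genes per library. WT and Δβ blasts alike carry MLL-AF9, so the WT libraries are leukemic and not normal marrow, and the genotype is that of the transplanted cells, not of the host. NSG hosts lack mature lymphocytes of their own but keep erythroid, myeloid and stromal cells. No source says whether the 3 libraries of a group came from separate transformed cultures, so p-values measure the spread between these libraries, which may be technical.

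Commitment to the myeloid lineage is run by a small circuit of such factors. PU.1, the product of Spi1, and C/EBPα, the product of Cebpa, open the program in progenitors, and the balance of later factors separates granulocytes, to which Gfi1 and Cebpe belong, from monocytes, to which Klf4 belongs. Runx1 and Gata2 act earlier, in stem and progenitor cells, and MLL fusion leukemias are arrested along this path.

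Levels are given as normalized counts, which are reads per gene divided by 1 size factor per library. Stat3 served as a check of the labels and had 2349 to 4430 normalized counts over the 12 libraries, but values per gene do not separate the α from the β isoform, so the check says nothing about genotype. In such bulk RNA, fewer cells of a type and less RNA per cell cannot be told apart. All 10 markers of myeloid blasts, Ptprc, Itgam and Lyz2 among them, had a mean of at least 10 normalized counts, and their sum was 63875 to 139412 per library. The erythroid markers summed to 5.43 to 19.3 normalized counts, with the globin genes Hba-a1, Hba-a2, Hbb-bs and Hbb-bt listed at 0 in every library. T and NK cell markers summed to 37.6 to 846, of which Nkg7 alone gave 828 in WT SP replicate 3, while Cd8a reached 103 in Δβ BM replicate 1. WT SP was the least uniform group, with a Pearson r across genes of 0.897 to 0.964 between its replicates, against 0.962 to 0.968 in Δβ SP.

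The members spanned a wide range of expression. Per kilobase of transcript, the mean level over the 12 libraries was highest for Spi1 at 2697 normalized counts, followed by Cebpe at 1921 and Cebpb at 1755. Gfi1 followed at 949, Cebpa at 460, Klf4 at 373 and Cebpd at 300.3. Runx1 stood at 187 and Gata2 was lowest at 37.6. Neighbours in this order were often not separated from library to library: Cebpe exceeded Cebpb in 7 of 12 libraries, and Klf4 exceeded Cebpd in 6 of 12. Spi1 exceeded Cebpe in 9 of 12, and Cebpa exceeded Klf4 in 10 of 12. Cebpd exceeded Runx1, and Runx1 exceeded Gata2, in all 12. Dividing by the length of all annotated exons instead of the matched transcript left the order as it was, with Runx1 at 73.7 per kilobase.

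The genes lie on GRCm38, with positions from GENCODE release M21, as follows. Spi1 (Entrez gene 20375) spans chr2:91082390-91115756 on the plus strand, and its matched transcript has 5 exons. Of the C/EBP genes, Cebpa (12606) spans chr7:35119293-35121928, Cebpb (12608) chr2:167688915-167690418 and Cebpd (12609) chr16:15887286-15891031, each as 1 exon on the plus strand. Cebpe (110794) spans chr14:54710360-54712174 on the minus strand with 2 exons. Gfi1 (14581) at chr5:107716657-107726036, Runx1 (12394) at chr16:92601466-92826149 and Klf4 (16600) at chr4:55527143-55532466 are on the minus strand. Gata2 (14461) spans chr6:88193891-88207032 on the plus strand. Genes on the opposite strand overlap Cebpa (Gm45091), Cebpb (Tmem189), Cebpd (Spidr), Gfi1 (A430072P03Rik) and Runx1 (Gm26626). The sources used here do not say whether reads were counted by strand, so reads of these 5 members and their partners may not be separated.

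In WT SP replicate 1, Spi1, Cebpa, Cebpb and Klf4 were at their highest of the 12 libraries, beside 25.8% of all tested genes, and Cebpd, Cebpe and Gfi1 at their lowest, beside 19.7%. The 250 bases before the starts of Klf4, Cebpb and Cebpa are shown so that promoters of members highest in that library can be set side by side, and no window was given for Spi1. The sequences are RefSeq promoter windows on GRCm38.p6, written 5′ to 3′ on the strand of the gene. They lie at chr4:55532476-55532725 on the minus strand for Klf4, chr2:167688665-167688914 on the plus strand for Cebpb and chr7:35119043-35119292 on the plus strand for Cebpa.
Klf4: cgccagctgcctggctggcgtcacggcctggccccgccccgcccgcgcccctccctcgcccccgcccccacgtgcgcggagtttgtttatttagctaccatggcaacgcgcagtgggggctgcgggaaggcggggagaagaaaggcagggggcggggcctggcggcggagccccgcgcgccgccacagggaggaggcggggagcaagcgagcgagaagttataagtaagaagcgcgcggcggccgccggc
Cebpb: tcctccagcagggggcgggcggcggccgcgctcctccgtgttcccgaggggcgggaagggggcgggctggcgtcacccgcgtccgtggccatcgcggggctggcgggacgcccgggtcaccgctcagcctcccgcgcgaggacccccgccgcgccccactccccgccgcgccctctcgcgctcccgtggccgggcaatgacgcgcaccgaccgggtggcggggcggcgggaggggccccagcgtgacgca
Cebpa: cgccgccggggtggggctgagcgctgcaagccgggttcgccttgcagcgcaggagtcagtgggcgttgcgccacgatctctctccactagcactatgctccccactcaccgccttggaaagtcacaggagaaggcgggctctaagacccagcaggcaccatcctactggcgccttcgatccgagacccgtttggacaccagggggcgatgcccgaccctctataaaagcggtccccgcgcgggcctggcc
Capitals were kept for matches to any of 7 motifs searched, and these stretches hold none, so they are all in lower case. The windows were rich in G and C, at 74.0% for Klf4, 81.6% for Cebpb and 66.4% for Cebpa, against a median of 52.4% over all 32851 windows. The median of the 9 windows given for members was 67.2%, and the 2 of Gata2 were at 67.2% and 74.0%. The trait was thus not particular to members highest in that library. The motifs, searched on both strands of the 300 bases from 250 before to 50 after each start, were TTCNNNGAA for STAT factors, TTGCNNAA for C/EBP, GAGGAAG for PU.1, TGTGGT for RUNX, AGATAA for GATA factors, TGACGTC for the cyclic AMP response element and CACACCC for KLF. Of all windows, 8.30% held the STAT motif, 10.8% C/EBP, 13.6% PU.1, 16.8% RUNX, 11.2% GATA, 3.21% the cyclic AMP element and 7.95% KLF. Windows were given for 6 of the 9 members, 9 windows in all. They held 1 C/EBP match (TTGCTGAA) before a start of Gfi1, at position -143 counted from 0 at the first base of that start. The 250 bases before this start, chr5:107725806-107726055, overlap the span of Gfi1 given above. The windows also held 2 RUNX matches after a start of Runx1, at positions 28 and 36. A match of letters is not evidence of binding, and a window with no match says nothing about the factor.

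**Figure D1:**
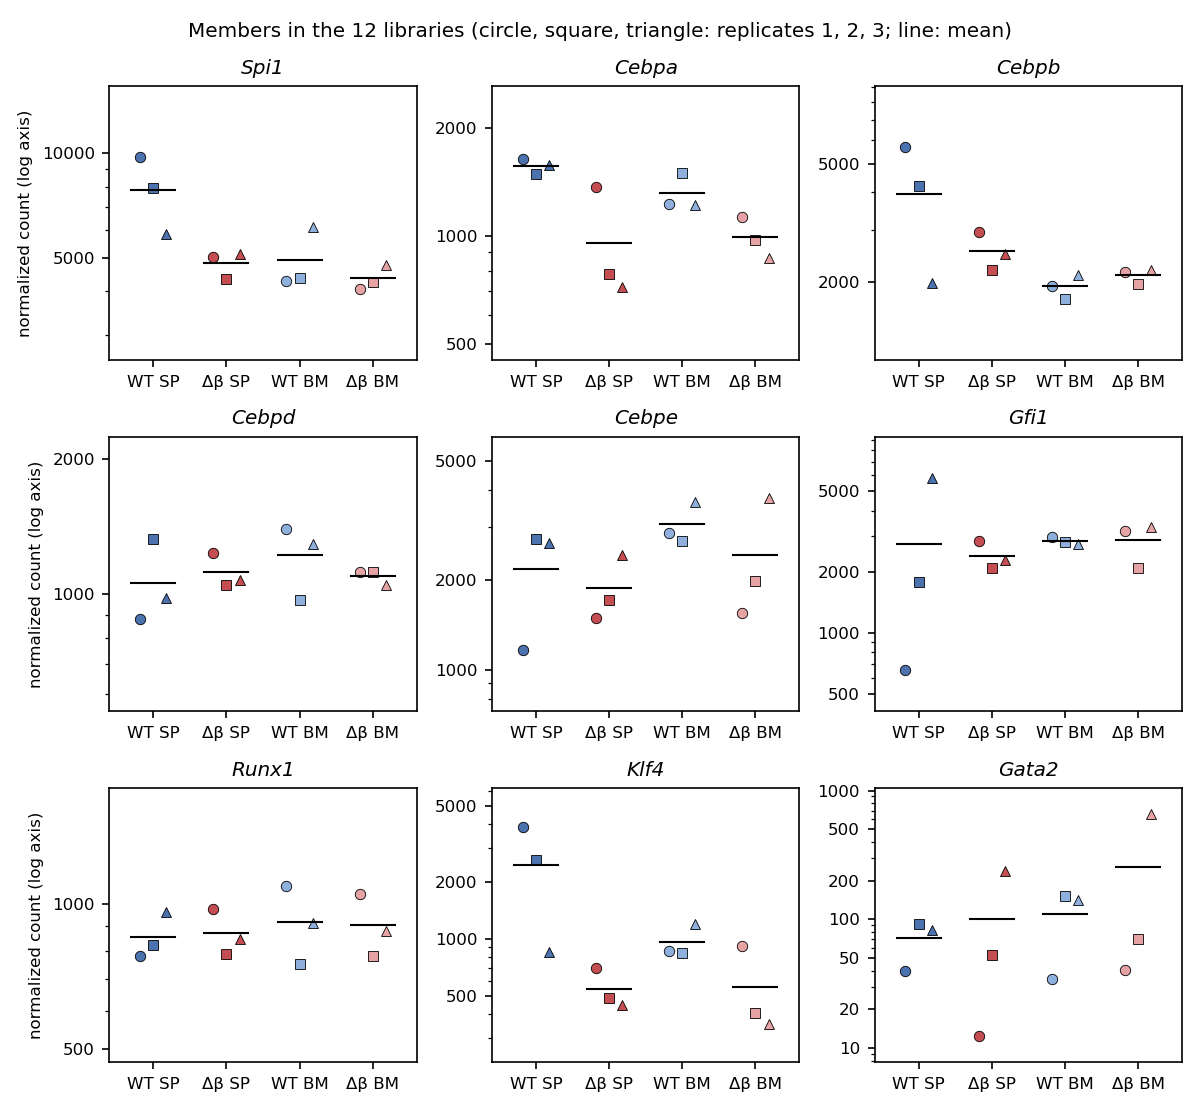
Normalized counts of the 9 members on log axes, with 1 panel per gene and 1 point per library; marker shapes give the replicate number and lines the mean of 3. WT SP spreads widely for Klf4 (848 to 3884) and Gfi1 (653 to 5810), and Gata2 spreads widely in Δβ BM (40.2 to 655).

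Spi1 was the most abundant member. Its normalized counts in spleen were 9726, 7918 and 5839 for WT (replicates 1 to 3, the order used throughout) and 5011, 4348 and 5135 for Δβ. In BM it had 4292, 4375 and 6109 in WT and 4051, 4255 and 4763 in Δβ. Every WT SP library lay above every Δβ SP library, whereas the genotypes overlapped in BM. The log2 difference, Δβ minus WT, was -0.67 in SP (SE 0.19, a level 1.59-fold lower, limma adjusted p = 0.218, Benjamini-Hochberg method over all 11476 genes tested) and -0.16 in BM (SE 0.19). The difference in SP did not pass the threshold of 0.05. Each limma SE came from 1 spread per gene over all libraries of the fit, so groups outside a comparison add to it.

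Cebpa, whose product is required for the step from progenitor to granulocyte and monocyte precursor, was even among WT SP libraries at 1639, 1487 and 1579 normalized counts. Δβ SP libraries had 1368, 785 and 718, with replicate 1 nearest to WT. In BM the counts were 1231, 1502 and 1224 in WT and 1130, 974 and 867 in Δβ. Cebpa was thus the member whose Δβ libraries were all below the WT libraries in both organs. Of all tested genes, 9.37% were so in SP and 4.13% in BM, and the share in both was not worked out. Same-numbered Δβ libraries of the organs deviated together, so the organs are not separate evidence. The log2 difference was -0.77 in SP (SE 0.21, 1.71-fold lower, limma adjusted p = 0.218) and -0.41 in BM (SE 0.21, limma adjusted p = 1.0), and neither passed. The 95% intervals were -1.24 to -0.30 in SP and -0.88 to 0.05 in BM.

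Cebpb, the C/EBP factor of macrophage gene expression and emergency granulopoiesis, varied most in WT SP, at 5678, 4201 and 1999 normalized counts. The other 9 libraries lay between 1755 and 2939, so replicates 1 and 2 of WT SP stood above all others and replicate 3 among them. The Δβ spleens had 2939, 2203 and 2490. Marrow blasts had 1953, 1755 and 2114 if WT and 2162, 1983 and 2202 if Δβ. The Δβ minus WT difference in SP was -0.52 on the log2 scale (SE 0.30, limma adjusted p = 0.413).

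Cebpe, a factor of the late, granule-forming stage of granulocytes, overlapped between genotypes in both organs. Spleen libraries had 1161, 2725 and 2647 normalized counts if WT and 1494, 1707 and 2410 if Δβ. Marrow libraries had 2872, 2690 and 3627 if WT and 1548, 1980 and 3748 if Δβ. Its lowest library was WT SP replicate 1, the library in which Cebpb was highest. Cebpd, which responds to G-CSF and inflammatory signals, was nearly flat and stayed between 880 and 1395 normalized counts over the 12 libraries. Its genotype differences were 0.10 in SP (SE 0.17) and -0.14 in BM (SE 0.17) on the log2 scale, with 95% intervals of -0.28 to 0.47 and -0.51 to 0.24.

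The make-up of the C/EBP family also differed among WT SP libraries. On the scale of normalized counts per kilobase, Cebpb gave 67.8% of the summed level of the 4 genes in WT SP replicate 1 and Cebpe 16.8%. Replicate 3 of that group had 30.7% Cebpb and 49.3% Cebpe. In spleen the mean Cebpb share was 48.6% ± 18.6 (SD, n = 3) for WT and 43.8% ± 4.54 for Δβ. In marrow it was 28.2% ± 0.913 for WT and 35.9% ± 6.72 for Δβ. For Cebpb and Cebpe, WT BM was the most even group, with Cebpe giving 53.6% ± 2.81. The share of Cebpa ranged from 9.44% to 11.6% in the group means, and that of Cebpd from 5.42% to 7.78%. The shares were worked out after the levels were seen and were not tested.

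**Figure D2:**
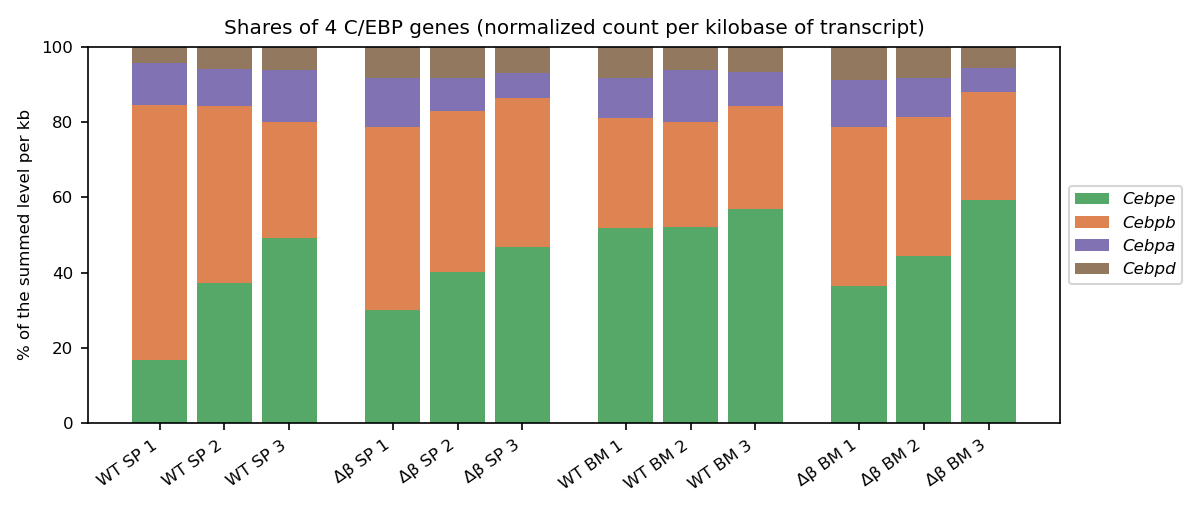
Share of each C/EBP gene in the summed normalized count per kilobase of the 4 genes, with 1 stacked bar per library and a vertical axis from 0 to 100%. Cebpb takes 67.8% in replicate 1 of WT SP and 30.7% in its replicate 3, while the 3 WT BM bars are alike.

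Gfi1, a repressor that favours granulocytes over monocytes, had the widest spread of any member in WT SP. It had 653, 1781 and 5810 normalized counts there, so that the lowest and the highest of all 12 libraries were both WT SP. The other groups were narrower. Δβ spleens had 2854, 2079 and 2292, and marrows 2966, 2812 and 2732 if WT and 3179, 2096 and 3322 if Δβ. The SD on the log2 scale in WT SP was 1.58, against a median of 0.31 over all tested genes in that group. The genotype difference in SP was 0.34 on the log2 scale (SE 0.58, limma adjusted p = 0.782), and edgeR and DESeq2, which compare means of counts, gave -0.19, so no direction can be stated.

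Klf4, a factor of monocyte differentiation, had the largest genotype difference of any member in SP. WT SP libraries had 3884, 2592 and 848 normalized counts and Δβ SP libraries 705, 485 and 451. All 3 WT values lay above all 3 Δβ values, though WT SP replicate 3 was close to the Δβ range. In BM the counts were 862, 840 and 1194 in WT and 917, 407 and 357 in Δβ, with Δβ replicate 1 inside the WT range. The log2 difference was -1.93 in SP (SE 0.50, 3.81-fold lower, limma adjusted p = 0.218) and -0.90 in BM (SE 0.50, limma adjusted p = 1.0). DESeq2 on the recovered reads called Klf4 in SP (adjusted p = 0.00144) and edgeR's quasi-likelihood test did not (adjusted p = 0.156).

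Klf4 and Gfi1 ran in opposite directions among the WT SP libraries. Per kilobase, the log2 ratio of Klf4 to Gfi1 was 2.49, 0.46 and -2.86 in the 3 WT SP libraries. The 9 libraries of the other groups lay between -3.30 and -1.28, so replicates 1 and 2 of WT SP were the libraries with more Klf4 than Gfi1. This ratio was chosen after its values were seen and was not tested. Spi1 and Cebpb were paired more simply, with WT SP replicates 1 and 2 highest for both. Over the 12 libraries Pearson's r of the log2 values was 0.86 for Spi1 and Cebpb (Spearman's rho 0.58), and -0.58 for Gfi1 and Klf4 (rho -0.27), as descriptions in which WT SP replicate 1 is an end point of both.

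**Figure D3:**
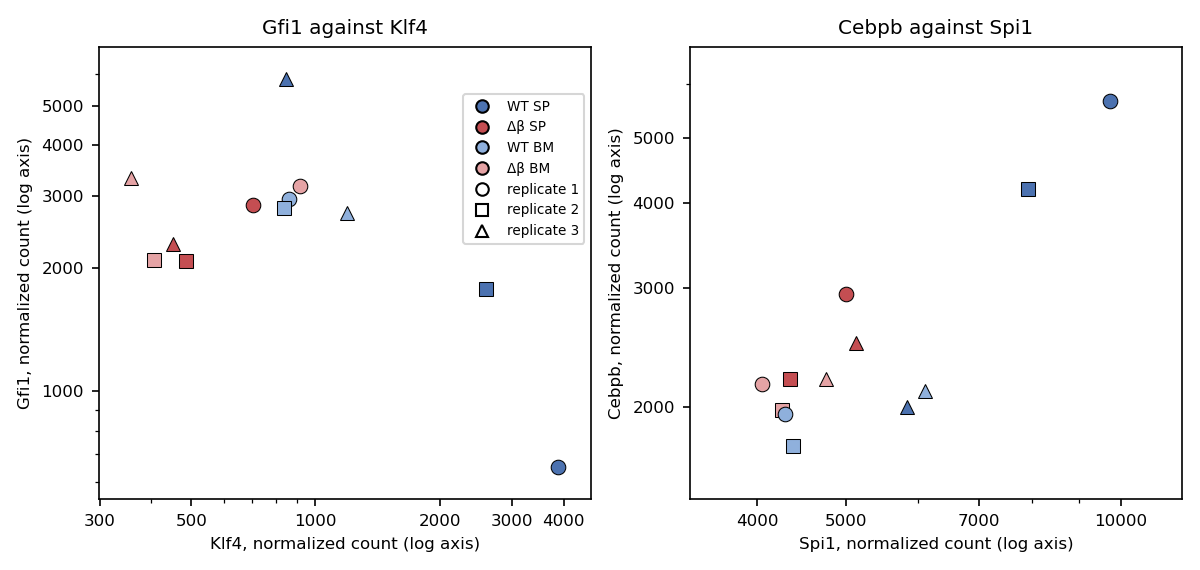
Gfi1 against Klf4 (left) and Cebpb against Spi1 (right) in normalized counts on log axes, with 1 point per library, colours for groups and shapes for replicate numbers. WT SP replicate 1 is at an end of both panels, with Klf4 at 3884 and Gfi1 at 653, and Spi1 at 9726 and Cebpb at 5678.

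Runx1, a factor of stem cell emergence and myeloid commitment, was the steadiest member. Spleen libraries had 782, 821 and 962 normalized counts if WT and 977, 787 and 844 if Δβ. Marrow gave 1091, 749 and 914 in WT and 1051, 780 and 880 in Δβ. The highest library was 1.46-fold above the lowest, and the 95% interval of the genotype difference on the log2 scale was -0.34 to 0.38 in SP and -0.38 to 0.34 in BM.

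Gata2, a factor of stem cells, mast cells and basophils, was the least abundant and the most variable. Spleen libraries had 39.9, 92.2 and 82.2 normalized counts if WT and 12.4, 52.6 and 237 if Δβ. Marrow libraries had 34.7, 152 and 142 if WT and 40.2, 70.1 and 655 if Δβ. The lowest value rests on 16 reads. The highest and the lowest library were both Δβ, and the genotype differences of -0.30 in SP and 0.43 in BM on the log2 scale had an SE of 1.15. Intervals of -2.83 to 2.23 in SP and -2.10 to 2.96 in BM mean that a difference in either direction was not detectable with these libraries.

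Between genotypes in SP, limma called 0 of the 9 members, where it called 12 of all 11476 genes (0.105%). At an unadjusted p under 0.05 there were 3 of 9, namely Spi1, Cebpa and Klf4, all lower in Δβ, beside 14.9% of all tested genes (8.96% lower). The same 3 were the members whose groups did not overlap, beside 17.3% of all tested genes (9.37% lower in Δβ). DESeq2 called 2 members, Klf4 and Spi1 (adjusted p = 0.0304 for Spi1), beside 4.2% of all genes, and edgeR called 0, beside 0.0436%. The median log2 difference of the members was -0.30, against -0.01 for all tested genes.

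The result in SP turned on WT SP replicate 3. Without that library, with replicates 1 and 2 of WT SP left, limma called 4 members, beside 16.4% of all genes, when 1884 genes passed. Replicate 3 was the lowest WT SP library for Klf4, Cebpb and Spi1 and the highest for Gfi1. The direction in which their differences moved was therefore fixed by leaving it out, and these calls are no separate evidence. Klf4 fell by 2.56 on the log2 scale (adjusted p = 0.00834), Cebpb by 0.95 (adjusted p = 0.0101) and Spi1 by 0.86 (adjusted p = 0.0150), and Gfi1 rose by 1.15 (adjusted p = 0.0496), all from limma. Cebpa was at -0.77 with an adjusted p of 0.0554. Without WT SP replicate 1 instead, 0 members were called, and the log2 differences were -1.47 for Klf4, -0.74 for Cebpa, -0.50 for Spi1 and -0.20 for Cebpb. Gfi1 then had the opposite sign, at -0.43. The monocyte and macrophage gene list had a summed level of 244644, 166866 and 68919 normalized counts in the 3 WT SP libraries, beside 73896 to 110927 in Δβ SP. The 10 dendritic cell markers, 5 of them with a mean of at least 10, summed to 938 to 2788 in WT SP and 350 to 1398 in Δβ SP. Itgax was at 1624 in WT SP replicate 1, where Xcr1 and Clec9a, which do not mark all dendritic cells, were at 14.8 and 2.28. The other markers of the list gave the rest of the sum of 2788 in that library. The 10 red pulp macrophage markers, 4 of them with a mean of at least 10, summed to 2374 to 5515 in WT SP and 1607 to 3107 in Δβ SP. Hmox1 was at 3925 in WT SP replicate 1, while Spic, C1qa and C1qb were at 3.42, 14.8 and 30.8. The 10 endothelial and stromal markers, 2 of them with a mean of at least 10, were lower in WT SP, at 1162 to 1219, than in Δβ SP, at 1584 to 2550, without overlap. Most of that sum was Pecam1, which leukocytes also express, while Cdh5, Kdr and Emcn were at or below 3.18 in every SP library. The part of such cells in the results was not tested.

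**Figure D4:**
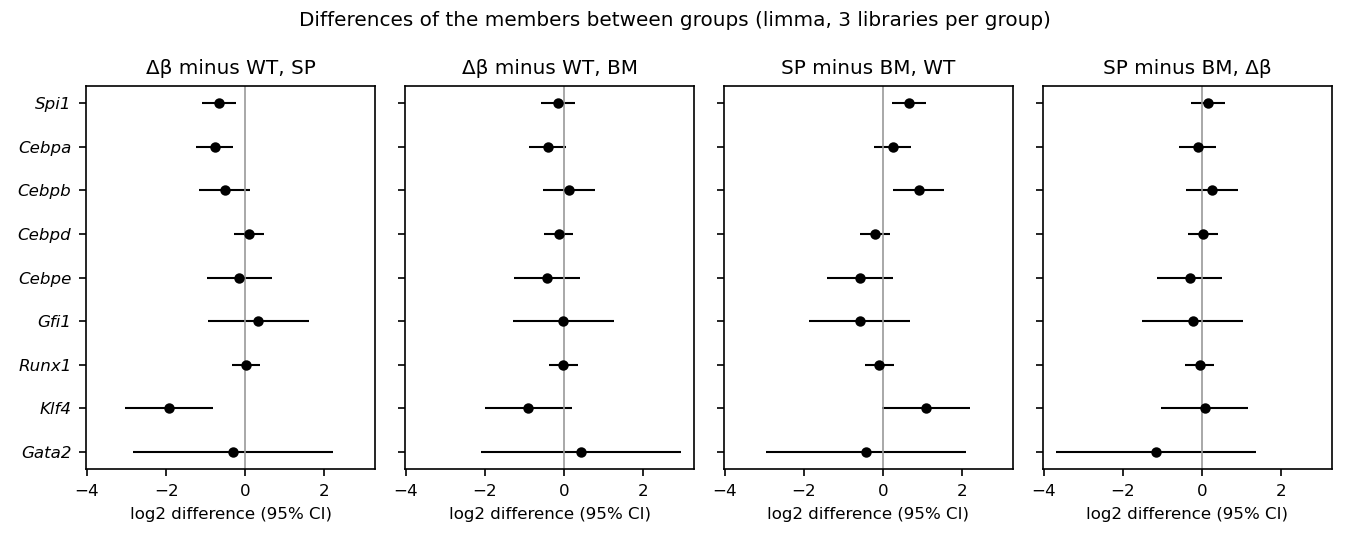
Log2 differences of the 9 members in 4 comparisons, as limma estimates (points) with 95% confidence intervals (lines); the vertical line marks no difference. In SP the intervals of Spi1, Cebpa and Klf4 lie below 0 for Δβ minus WT, and none of the members passed the adjusted threshold.

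Between genotypes in BM, limma called 0 of the 9 members, beside 0.0697% of all tested genes, and 0 had an unadjusted p under 0.05, beside 2.59%. DESeq2 and edgeR also called 0 members, where DESeq2 called 0.323% of all genes and edgeR 0.0697%. Leaving out WT SP replicate 3, which adds to the SE in BM but not to the difference, also gave 0 calls of members. Of all genes, 0.105% were called without it. Klf4 in BM was then at -0.90 (SE 0.34, limma unadjusted p = 0.0227). In that fit 2.22% of all genes were lower in Δβ BM at an unadjusted p under 0.05. Cebpa was the member whose groups did not overlap, beside 7.63% of all genes (4.13% lower in Δβ). Of the members, 7 of 9 were lower in Δβ, with a median of -0.14, against -0.02 for all tested genes. Gfi1 at -0.014 and Runx1 at -0.017 count among the 7, though both were nearer to 0 than that median of all genes. The 10 red pulp macrophage markers, 4 of them with a mean of at least 10, summed to 4913 to 7196 in WT BM and to 2367 to 3376 in Δβ BM, without overlap. In WT SP the sum was 2374 to 5515. Of the 4 tested markers, 4 were lower in Δβ BM, 1 of them without overlap between the groups. A sum of few genes does not count macrophages, and the part of such cells in the results was not tested. The test of whether the genotype difference itself differed between organs called 0 members and 0 genes by limma and edgeR, and 0 members and 0.0262% of genes by DESeq2, with 0 members and 3.2% of genes at an unadjusted p under 0.05. For Klf4 this difference of differences was -1.03 on the log2 scale (SE 0.71, limma adjusted p = 0.926), with an interval of -2.60 to 0.54.

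Between SP and BM of WT blasts, 0 members and 0 genes were called by limma, while edgeR also called 0 and DESeq2 called 0 members and 0.925% of genes. At an unadjusted p under 0.05 were Spi1, 0.66 higher in SP on the log2 scale (SE 0.19), and Cebpb, 0.91 higher (SE 0.30), beside 8.27% of all genes (4.36% higher in SP). No member was without overlap between the organs, beside 11.5% of all genes, since WT SP replicate 3 lay among the BM libraries for Spi1 and Cebpb. Without that replicate, with replicates 1 and 2 of WT SP left, 4 members were called by limma, beside 5.21% of all genes. Cebpb was then 1.34 higher in SP (adjusted p = 0.0215), Klf4 1.73 higher (adjusted p = 0.0334), Spi1 0.85 higher (adjusted p = 0.0288) and Gfi1 at -1.39 (adjusted p = 0.0481).

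Between SP and BM of Δβ blasts, 0 members were called by limma, DESeq2 or edgeR. DESeq2 called 0.0175% of all genes, and limma and edgeR called 0. At an unadjusted p under 0.05 there were 0 members, beside 1.77% of all genes. Cebpb was the member without overlap, higher in SP, beside 7.42% of all genes (2.92% higher), by 0.26 on the log2 scale (SE 0.30). That SE also holds the spread of WT SP, where the log2 SD of Cebpb was 0.77, against 0.21 in Δβ SP and 0.08 in Δβ BM. Same-numbered Δβ libraries of the organs deviated together, so the 6 Δβ libraries were also fitted with the replicate number as a block, an alternative chosen after the data were seen. That paired fit called 0 members and 0 genes. At an unadjusted p under 0.05 it had 3 of 9 members, beside 10.4% of all genes, namely Gata2 at -1.16 (SE 0.27, limma adjusted p = 0.309), Cebpb at 0.26 (SE 0.09, limma adjusted p = 0.451) and Cebpe at -0.30 (SE 0.12, limma adjusted p = 0.479). Spi1 and Cebpb were higher in SP in all 3 pairs, beside 15.7% of all genes, and Cebpe, Gfi1 and Gata2 were lower in all 3, beside 18.7%. For 5 of 9 members in Δβ blasts, namely Cebpa, Cebpe, Runx1, Klf4 and Gata2, the 3 libraries stood in the same order in SP and in BM, beside 35.6% of all tested genes. In WT blasts this held for 1 of 9, Gata2, beside 13.1%. Gata2 shows it with the widest steps, from 12.4 to 237 in Δβ SP and from 40.2 to 655 in Δβ BM.

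The same comparison was made for related genes in 5 lists. Of the paralogs and partners of the members, 15 of 24 genes were tested in SP, and 0 were called by limma, with 3 lower at an unadjusted p under 0.05, beside 8.96% of all genes. Klf6, a paralog of Klf4, had 6402, 6041 and 2442 normalized counts in WT SP and 1576, 1499 and 1218 in Δβ SP, a log2 difference of -1.68 (SE 0.45, limma adjusted p = 0.218). Trib1, a pseudokinase that promotes degradation of C/EBPα, had 1823, 1131 and 210.1 in WT SP and 96.1, 113 and 115 in Δβ SP, a difference of -2.80 (SE 1.05, limma adjusted p = 0.282). In both, as in Klf4, replicate 3 was the WT library nearest to Δβ. Rcor1 and Kdm1a, corepressor partners of Gfi1 named for BM, differed by -0.30 (SE 0.14) and -0.07 (SE 0.09) in SP. In BM they differed by -0.24 (SE 0.14) and 0.14 (SE 0.09).

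Of 46 tested genes among other myeloid and stem cell regulators, 0 were called in SP, with 15 lower and 1 higher at an unadjusted p under 0.05, beside 8.96% and 5.93% of all genes. Junb, an AP-1 factor, had 5267, 3993 and 3291 normalized counts in WT SP and 1186, 1964 and 865 in Δβ SP. Its log2 difference was -1.70 (SE 0.31, limma adjusted p = 0.0796). Every WT SP library lay above every Δβ SP library. The difference in BM was -0.47 (SE 0.31). Egr1 and Mef2c, named for BM, differed by 2.03 (SE 0.95) and 0.68 (SE 0.25) there, both with a limma adjusted p of 1.0. In SP their differences were -1.98 (SE 0.95) and 0.02 (SE 0.25).

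Genes typical of mature or immature cells were given by 3 further lists, and limma called 0 genes of each in SP and in BM. Of 30 granule and neutrophil genes, 6 were lower and 1 higher in SP at an unadjusted p under 0.05, beside 8.96% and 5.93% of all genes. The median log2 difference of the list was -0.74. The single higher gene was Mpo, the myeloperoxidase of early granules, at 5947, 5256 and 40587 normalized counts in WT SP and 53209, 25775 and 30744 in Δβ SP (log2 difference 1.68, SE 0.69, limma adjusted p = 0.303). As with Gfi1, replicate 3 was the highest of the WT SP libraries. In BM, for which it was named, Mpo differed by 1.83 (SE 0.69) and did not pass either. Other early granule genes of the list, named after their values were seen, were in SP at 0.10 for Elane (SE 0.65), 0.09 for Ctsg (SE 0.68) and 0.46 for Prtn3 (SE 0.50). In BM these were at 0.08, -0.48 and 0.37. The genes named for their p in SP or BM included Cd177 at -1.82 (SE 0.59), Retnlg at -3.71 (SE 1.23) and Pglyrp1 at -1.11 (SE 0.33), with limma adjusted p of 0.241, 0.247 and 0.222 in SP.

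Of 27 tested monocyte and macrophage genes, 9 were lower and 0 higher in SP at an unadjusted p under 0.05, beside 8.96% and 5.93% of all genes. The median of the list was -0.71. Cd300e, a receptor of mature monocytes, had 1899, 203 and 52.8 normalized counts in WT SP and 24.0, 8.96 and 11.7 in Δβ SP (log2 difference -4.23, SE 1.09, limma adjusted p = 0.205). Treml4 had 1905, 561 and 159 in WT SP and 107, 66.1 and 63.0 in Δβ SP (log2 difference -2.84, SE 0.79, limma adjusted p = 0.218). Vcan and F13a1 differed by -1.83 (SE 0.86) and -0.87 (SE 0.51) in BM. Beside the same shares of all genes, 2 of 16 tested stem, mast cell and basophil genes were higher and 0 lower in SP at an unadjusted p under 0.05. These were Ikzf2, at 1.05 (SE 0.29), and Ly6a, which encodes Sca-1, at 1.83 in SP (SE 0.58) and 2.27 in BM (SE 0.58). Gzmb differed by 0.94 in BM (SE 0.50). Ly6a was low throughout, with 2.25 to 48.2 normalized counts per library. In BM 0 or 1 gene of each list had an unadjusted p under 0.05 and a higher level in Δβ, beside 1.25% of all genes, and 0 had a lower one, beside 1.33%. In SP, Klf6, Trib1, Junb, Pglyrp1, Retnlg, Cd300e and Treml4, all lower, and Ikzf2, higher, passed under DESeq2 and without WT SP replicate 3. Of all genes, 4.2% and 16.4% passed in these settings. Cd177 passed only under DESeq2, and Mpo, Vcan and Ly6a only without that replicate. All were named for a small p in these data, so this is no separate evidence.

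**Figure D5:**
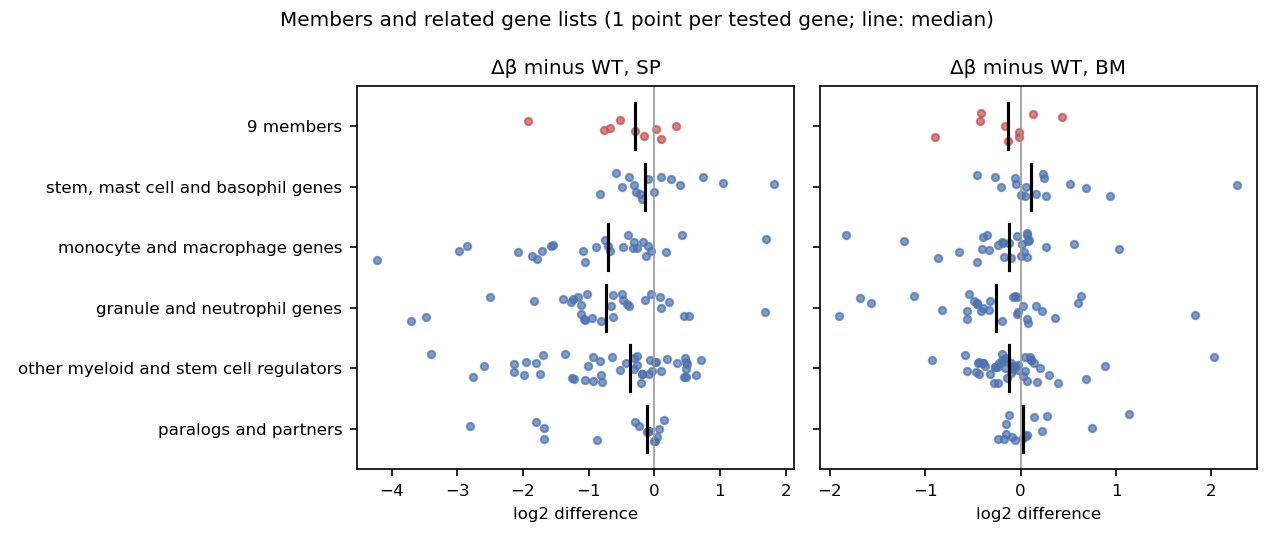
Log2 differences, Δβ minus WT, of the 9 members and of the tested genes of 5 related lists in SP (left) and BM (right), with 1 point per gene and a line at the median. In SP the medians of the granule and the monocyte list are -0.74 and -0.71, and in BM all medians are nearer to 0.

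The genes most like each member across the 12 libraries were found by Pearson's r of the log2 values, as a description. Those of Spi1 were Dctn2 (r = 0.99) and Dyrk3 (0.98), and those of Cebpb were Creb3 (0.97) and Necap2 (0.95). Klf4 was followed by Itpkb and Hmox1 (both 0.97), the latter also a marker of red pulp macrophages. Gfi1 was followed by Alas1 (0.97), the first enzyme of heme synthesis, and by Myb (0.96), a factor of immature blood cells. Cebpe was most like Zfp523 (0.95) and Agap2 (0.94), and Cebpa most like Stom (0.92) and Mpp1 (0.91). The flat genes had weaker neighbours, with Paqr4 and Banp (both 0.88) for Cebpd, and Abcg2 (0.90) for Runx1. Gata2 was most like Ltb4r2 (0.95) and Pdgfrb (0.92). With any 1 library left out, the lowest r of a named pair was 0.83, for Cebpd and Banp.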

How the data were processed

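RNA of Venus+ blasts was sequenced from 12 poly-A libraries, grouped by the genotype and organ of their labels. For every gene the authors deposited a normalized signal, which is its count over the size factor of the library; the submitters' processing notes name FastQC, STAR, featureCounts, DESeq2 and the build GRCm38 (mm10), without versions. All values of each library were whole multiples of the value of 1 read within 1e-06, and reads were recovered by that step. A further 6 columns that no label describes were left out.

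Tests used limma 3.58.1 in R 4.3.3 (lmFit, eBayes with trend) on log2(normalized count + 1), for 11476 genes with a mean of at least 10, with Benjamini-Hochberg adjustment over all of them and a threshold of 0.05. Fold changes on this scale understate those of low genes. Alternatives were edgeR 4.0.16 and DESeq2 1.42.0 on the recovered reads, other pseudocounts, filters and scalings, and each library left out. The procedure was tested on simulated data with the same dispersion in every gene and group, so the test does not cover the uneven spread of WT SP. Lengths per kilobase are those of the GENCODE M21 transcript matched to the RefSeq entry.

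Named genes are the 9 members, Stat3, in each list the 2 genes with the smallest unadjusted p for genotype in SP, the 2 in BM and up to 5 called in any comparison, and the 2 genes most like each member. A few genes that this rule picks are not reported here. Members, lists and this rule were chosen with earlier results of these data known. Ratios and shares between members were chosen after their values were seen. Gata2, the member with the fewest reads, rested on 16 to 632 reads per library.

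Replicate numbers pair the Δβ organs: same-numbered SP and BM libraries deviated together from their group means (r = 0.66, 0.61 and 0.63 across genes). WT organs (-0.24 to -0.01) and genotypes (-0.17 to 0.20) did not pair.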

Additional observations from a re-analysis of the deposited data

How the results depend on the processing

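The number of members called was 0 in every comparison and moved in 3 cases. It was 2 in SP under DESeq2, and without WT SP replicate 3 it was 4 for genotype in SP and 4 for organ in WT blasts, so the ranges with 1 library left out were 0 to 4 in both. In BM, between the organs of Δβ blasts and for the difference between organs it stayed 0. Other pseudocounts, filters, TMM, eBayes without trend and a fit of the 6 libraries compared left all counts at 0. With a replicate block for the label's number, 0 members were called in each comparison, as in a paired fit of the 6 Δβ libraries alone, and the block changed no call of a member. Over all genes it moved the calls for genotype from 12 to 1 in SP and from 8 to 1 in BM.

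Log2 differences that changed sign were small or rested on few libraries, and the cause was not tested. Under edgeR and DESeq2 in SP, Gfi1 was at -0.19 in both, Gata2 at 0.48 and 0.49 and Mef2c at -0.019 in both. Under both, Gfi1 was at 0.015 in BM, while between the organs of Δβ blasts Klf4 was at -0.033 and -0.034, and the difference between organs for Gfi1 was -0.21 and -0.20. With 1 library left out, the genotype difference in SP ranged over -0.027 to 0.27 for Cebpd, -0.43 to 1.15 for Gfi1, -0.063 to 0.11 for Runx1, -0.55 to 0.063 for Cebpe, -1.35 to 0.73 for Gata2, -0.11 to 0.28 for Mef2c and -0.73 to 0.0017 for F13a1. In BM it ranged over -0.14 to 0.20 for Gfi1, -0.15 to 0.12 for Runx1, -0.77 to 1.23 for Gata2, -0.25 to 0.0042 for Spi1, -0.58 to 0.22 for Klf6, -0.99 to 0.29 for Cd300e, -0.96 to 0.17 for Treml4 and -0.21 to 0.019 for Stat3. Between organs in WT it ranged over -1.39 to 0.18 for Gfi1 and -0.23 to 0.041 for Runx1. Between organs in Δβ it ranged over -0.046 to 0.073 for Cebpd, -0.19 to 0.49 for Klf4, -0.39 to 0.074 for Cebpa, -0.15 to 0.063 for Runx1, -0.57 to 0.065 for Cebpe and -2.21 to 0.036 for Gata2. The difference between organs ranged over -0.12 to 0.65 for Cebpe, -0.42 to 1.16 for Gfi1, -0.092 to 0.18 for Runx1 and -1.78 to 0.47 for Gata2.

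Without WT SP replicate 3, a setting added for the lists after the data were seen, the genes lower in SP at an unadjusted p under 0.05 numbered 6 of the paralogs and partners, 23 of the other regulators, 14 of the granule and 20 of the monocyte list, beside 20.8% of all genes. The number of genes called in SP by limma moved from 12 to 1884 without that library and to 481 under DESeq2, and was 1 to 18 under the other settings.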
